A study of Mus musculus with 17 samples.

Results

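The 7 genes described here encode the astrocyte's carriers for inhibitory and related amino acids and the enzymes that break GABA down: the carriers *Slc6a11*, *Slc6a13*, *Slc6a9*, and *Slc6a6*, and the enzymes *Abat*, *Aldh5a1*, and *Maob*. They were chosen by symbol from the 26556 genes counted, and each of the 7 was found once. The choice was made with earlier results of these data known. The shares of all genes set beside the members below are therefore a description and not a test. The comparisons ask how these genes differ between cortical and thalamic astrocytes and among astrocytes of the thalamic nuclei. Their RNA was compared over 17 libraries of astrocytes that were sorted by green fluorescence from *Gfap::GFP* mice of the FVB strain at P7. The astrocytes came from somatosensory cortex (4 libraries) or from 1 of 3 sensory nuclei of the thalamus, namely the dorsolateral geniculate nucleus (dLG, 5 libraries), the ventral posteromedial nucleus (VPM, 4), or the ventral division of the medial geniculate nucleus (MGv, 4). All groups share strain, age, and transgene, none was treated, and each library pooled 4 brains, so that a library does not give the level of 1 animal. The reporter follows the *Gfap* promoter and therefore selects the astrocytes in which this promoter is active.

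Astrocytes end the action of GABA and glycine by taking them up through sodium-driven carriers of the SLC6 family. Inside the cell, GABA transaminase turns GABA into succinic semialdehyde, and succinic semialdehyde dehydrogenase passes this on to the citric acid cycle as succinate. Monoamine oxidase B, a mitochondrial enzyme of astrocytes, acts in the reverse sense, since it takes part in the route by which astrocytes can make GABA from putrescine.

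Thalamic astrocytes held more RNA of the GABA carrier *Slc6a11* than cortical astrocytes, by 2.43-fold, and less of *Maob*, by 2.45-fold. The taurine carrier *Slc6a6* was also higher, by 1.40-fold. Of the 6 members that passed the filter on low counts, these 3 passed an adjusted p under 0.1 in edgeR's quasi-likelihood test with Benjamini-Hochberg (BH) adjustment, against 11.4% of the 17856 genes tested. The members higher in the thalamus were 2, against 5.45% of all genes, and the member lower was 1, against 5.93%. The cortical and thalamic libraries did not overlap for *Slc6a11* and *Maob*, which was so for 4.78% of all genes. In these bulk samples, fewer cells of a type and less RNA per cell cannot be told apart.

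The libraries held between 18213687 and 50366363 counts, the highest being cortex replicate a and the next 21519981. Levels are given as CPM, a gene's counts relative to all counts of its library after scaling by edgeR's TMM factors, and 3 counts correspond to 0.0596 to 0.165 CPM. By their leading digits, the numbers that the labels give to the libraries form 3 series: 1 of 10 libraries with all of the MGv and 2 libraries of each other group, 1 of 6 libraries with 2 of each group except the MGv, and 1 that holds dLG replicate c alone, which also had the fewest genes detected (17749, against up to 23365). The summed level of 10 astrocyte markers was 12530 to 13147 CPM in the cortex, 7585 to 8969 in the dLG, 6286 to 8675 in the VPM, and 6039 to 15673 in the MGv, and none of the 10 was at 0 in any library. Of these markers, *Aldoc*, *Slc1a2*, and *Slc1a3* were lower in the thalamus (log2FC -1.04, -1.16, and -1.72) and *S100b* was higher (0.84), while *Gfap*, whose promoter drives the reporter, stood at 438 to 537 CPM in the cortex but at only 8.73 to 18.9 CPM in the VPM. The astrocyte sum of 15673 CPM was that of MGv replicate c, whose *Gfap* was at 5731 CPM. The other MGv libraries summed to 6039 to 8256 CPM. The summed neuronal markers, 10 genes, were at 829 to 1070 CPM in the cortex and 498 to 1732 CPM in the thalamus, the 8 oligodendrocyte lineage markers at 2955 to 4018 and 2747 to 6224 CPM, and the part of these other cells in the results below was not tested.

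*Slc6a11* encodes GAT3, the GABA carrier typical of astrocytes, and lies on chromosome 6 from 114131241 to 114249952 (GRCm38). Its RNA was at 415, 459.9, 439.7, and 361 CPM in cortex replicates a to d. In the dLG it was at 519.7, 1096, 2002, 575, and 1596 CPM in replicates a to e, in the VPM at 628, 837, 1027, and 677 CPM, and in the MGv at 746, 1730.1, 909, and 1089 CPM. All 13 thalamic libraries thus lay above all 4 cortical libraries, and the spread among them was wide, with a coefficient of variation of 45.5% in the thalamus against 10.2% in the cortex. The thalamic mean was 1033 ± 469.7 CPM and the cortical mean 419 ± 42.7 CPM (SD, n = 13 and 4), which gave a log2 fold change (log2FC) of 1.28 (SE 0.31, adjusted p = 0.0131). By nucleus, against the same 4 cortical libraries, the log2FC was 1.44 in the dLG (SE 0.34, adjusted p = 0.0080), 1.38 in the MGv (SE 0.35, adjusted p = 0.0165), and 0.94 in the VPM (SE 0.34, adjusted p = 0.127). The VPM libraries did not overlap with the cortex either, but the difference did not pass the threshold. It did pass in 7 of 25 settings. In edgeR these were the fits without dLG replicate a, c, or d (adjusted p = 0.0740, 0.0653, and 0.0842) and of only VPM and cortex (0.00101). It also passed there with the replicate letter as a block (0.0642) or the library series as a covariate (0.0783). In DESeq2 the adjusted p was 0.0800. The dLG libraries enter this comparison only through steps shared by all groups, such as the estimate of the spread. Within the larger library series the difference in mean log2 CPM between thalamus and cortex was 1.20 and within the smaller 0.93. Without dLG replicate c, the highest library, the log2FC between the regions was 1.17 (adjusted p = 0.00988).

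The start of *Slc6a11* is shown because this is the member with the highest level and, of the 6 tested, the largest rise, and that of *Slc6a13* because it is the other GABA carrier among the members and was close to undetected. Both windows run from 250 bases before the start site to 50 after it and come from RefSeq (GRCm38.p6, plus strand): chr6:114130991-114131290 for *Slc6a11* and chr6:121300038-121300337 for *Slc6a13*, the most upstream of its 3 starts. Capitals mark AAGGTCA, the half-site of nuclear receptors, and GGGCGG, the GC box bound by Sp1, each searched on both strands (TGACCTT and CCGCCC on the other), and no marked site overlaps another.
Slc6a11: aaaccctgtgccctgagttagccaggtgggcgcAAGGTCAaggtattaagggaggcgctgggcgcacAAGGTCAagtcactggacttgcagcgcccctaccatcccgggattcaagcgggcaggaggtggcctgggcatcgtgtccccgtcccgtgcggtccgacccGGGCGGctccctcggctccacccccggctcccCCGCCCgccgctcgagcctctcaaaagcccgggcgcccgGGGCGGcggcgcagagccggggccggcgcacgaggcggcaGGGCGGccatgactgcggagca
Slc6a13: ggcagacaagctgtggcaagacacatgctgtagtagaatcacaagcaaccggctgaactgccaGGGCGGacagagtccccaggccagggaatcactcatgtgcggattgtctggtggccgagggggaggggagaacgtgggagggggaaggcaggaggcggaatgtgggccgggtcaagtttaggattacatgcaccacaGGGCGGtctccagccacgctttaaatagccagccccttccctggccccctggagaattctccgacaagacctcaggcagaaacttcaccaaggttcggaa
The *Slc6a11* window holds AAGGTCA at 2 places, 217 and 183 bases before the start, and GGGCGG or its complement at 4. Among 32851 mouse promoter windows of the same length, 4.72% hold AAGGTCA at least once and 0.18% at least 2 times. GGGCGG is held at least once by 35.7%, at least 2 times by 19.5%, and at least 4 times by 5.49%. The *Slc6a13* window shown holds GGGCGG at 2 places and no AAGGTCA. The window of its most downstream start, not shown, holds AAGGTCA at 1 place, on the other strand and 224 bases before that start. CpG dinucleotides number 32 in the *Slc6a11* window and 11 in that of *Slc6a13*, against a median of 7, and 9.52% and 41.4% of all windows hold as many. AAGGTCA was chosen after the *Slc6a11* window had been read, and a match is no evidence of binding. Of the 7 members, 4 had an entry, the others being *Slc6a9* and *Aldh5a1*.

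**Figure D1:**
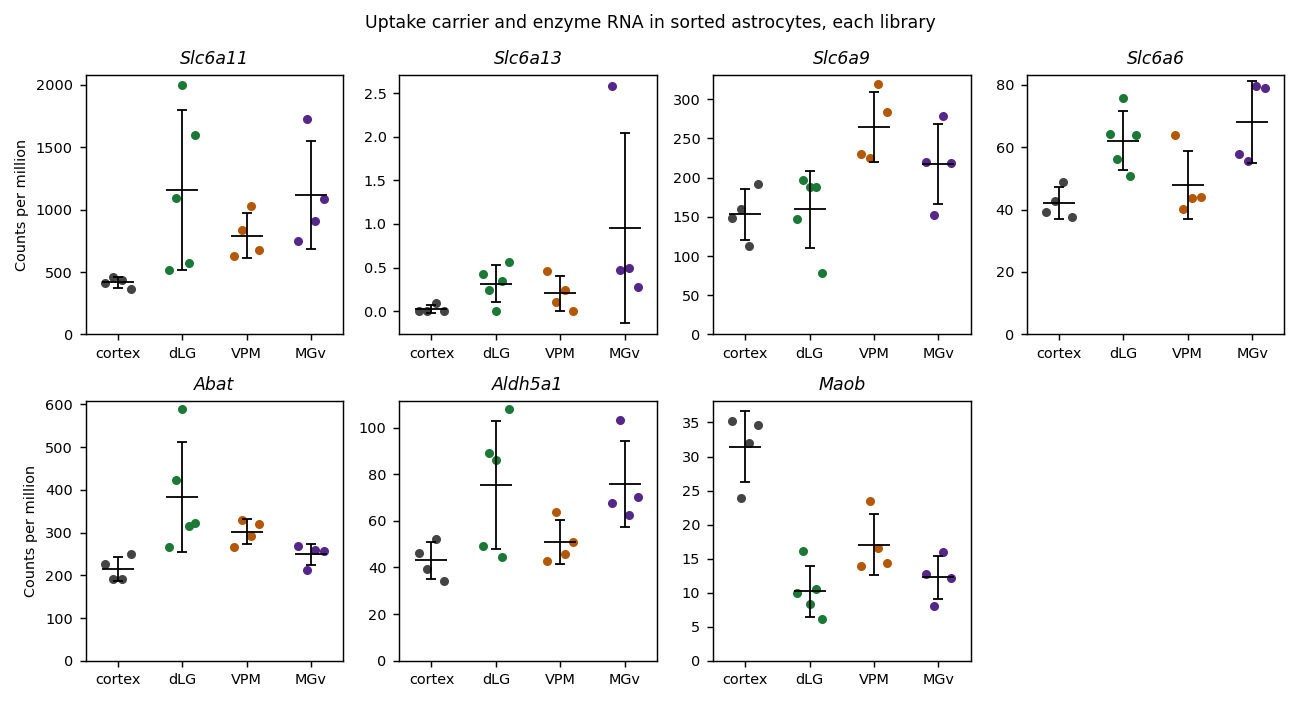
Level of each gene in each library (points; CPM on linear axes of their own), with the mean (wide mark) and SD (bars), for cortex, dLG, VPM, and MGv. All thalamic points lie above the cortex for *Slc6a11* and below it for *Maob*, while *Slc6a13* stays at or under 2.58 CPM everywhere.

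*Slc6a13* encodes GAT2, a GABA and taurine carrier known mainly from the meninges, liver, and kidney, and lies on chromosome 6 from 121300227 to 121337733. It had 0, 0, 2, and 0 counts in the cortical libraries, 9, 5, 0, 7, and 11 in the dLG, 10, 2, 5, and 0 in the VPM, and 53, 9, 10, and 6 in the MGv. The gene was therefore near the limit of detection, at 0.0989 CPM or less in the cortex and between 0 and 2.58 CPM in the thalamus, and it did not pass the filter on low counts. Over summed counts, the thalamus held 127 and the cortex 2, a ratio per count sequenced of 27.1 (exact 95% binomial interval 7.35 to 226, counting error only), or 17.1 (4.57 to 144) without MGv replicate a. Tested without the filter, the adjusted p was 0.0845 between the regions, 0.111 between dLG and cortex, 0.321 between VPM and cortex, and 0.0339 between MGv and cortex. In DESeq2 these adjusted p-values were 0.0128, 0.0395, 0.198, and 0.00294. Leaving out 1 cortical library brought the gene through the filter, with an adjusted p between the regions of 0.203 to 0.207 without replicate a, b, or d and of 0.0570 without replicate c. Between MGv and cortex the adjusted p was at most 0.0870 in the 12 settings that tested the gene. None of these left out MGv replicate a, which held 53 of the 78 counts of the MGv, so that they cannot show whether the difference depends on that library. The 7 meningeal fibroblast markers in the counts summed to 12.3 CPM in MGv replicate a, the lowest of the MGv, and to 22.0 to 35.6 CPM in the other MGv libraries. Of the 6 of these markers that were tested, *Dcn* and *Aldh1a2* were higher in the thalamus (adjusted p = 0.0117 and 0.0680) and *Col1a2* was lower (adjusted p = 0.0215). *Dcn* was at 0 in the 4 cortical libraries and at 0.243 CPM in MGv replicate a, against 4.45 to 10.4 CPM in the other MGv libraries, and the part of meningeal cells in the *Slc6a13* counts was not tested.

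*Slc6a9* encodes GlyT1, the glycine carrier of astrocytes, and lies on chromosome 4 from 117834506 to 117875198. Opposite-strand genes (*B4galt2*, *Ccdc24*, and *Gm17114*) overlap 30.2% of its exonic length, and whether the counting used the strand is not given in the sources used here, so that their reads cannot be told apart from those of *Slc6a9*. It was at 149, 159.9, 113, and 192 CPM in the cortex and 147, 196, 188, 188, and 78.8 CPM in the dLG. The VPM libraries held 230.3, 225, 319, and 284 CPM, above every cortical and dLG library, and the MGv libraries 219.7, 153, 279, and 218 CPM, which overlapped with all other groups. The VPM exceeded the cortex by a log2FC of 0.81 (SE 0.24, adjusted p = 0.0482), and the dLG fell short of the VPM by 0.76 (log2FC -0.76, SE 0.23, adjusted p = 0.0724). Against the cortex, the dLG differed by 0.03 with an interval from -0.46 to 0.52, the MGv by 0.46 with an interval from -0.06 to 0.98, and the whole thalamus by 0.44 with an interval from -0.09 to 0.97. The difference between MGv and cortex passed without dLG replicate e (adjusted p = 0.0885). The call for the VPM against the cortex was lost without cortex replicate a or c or VPM replicate c or d (adjusted p = 0.103, 0.183, 0.167, and 0.126), and that between the nuclei without dLG replicate a or VPM replicate a, c, or d (adjusted p = 0.106, 0.139, 0.207, and 0.172). Within the 2 library series, the dLG lay 0.82 and 0.90 below the VPM in mean log2 CPM. Of the 8 oligodendrocyte lineage markers, 6 had a log2FC above 0 in the VPM against the cortex. In edgeR 2 passed, *Mbp* and *Mag* (log2FC 1.17 and 1.11, adjusted p = 0.0399 and 0.0909), against 9% of all genes. Others went the other way: *Pdgfra* was at 770 to 980 CPM in the VPM and 1051 to 1301 in the cortex, and *Cspg4* at 154 to 197 and 178 to 300. The part of these cells in the *Slc6a9* level was not tested.

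*Slc6a6* encodes the taurine carrier TauT, which also takes GABA at low affinity, and lies on chromosome 6 from 91684053 to 91759066. It was at 39.3, 42.6, 48.9, and 37.6 CPM in the cortex, at 64.3, 56.2, 75.6, 50.6, and 63.7 CPM in the dLG, and at 57.9, 55.6, 79.5, and 79.0 CPM in the MGv. All dLG and MGv libraries were above the cortex, with a log2FC of 0.53 (SE 0.17, adjusted p = 0.0401) and 0.65 (SE 0.17, adjusted p = 0.0219). The VPM, at 63.9, 40.2, 43.6, and 43.9 CPM, overlapped with the cortex, and its log2FC of 0.21 had an interval from -0.16 to 0.59 (adjusted p = 0.641). For the whole thalamus the log2FC was 0.48 (SE 0.16, adjusted p = 0.0795). This call was lost without cortex replicate a, b, or d (adjusted p = 0.204, 0.181, and 0.237) and without dLG replicate a or MGv replicate d (0.106 and 0.108), and that of the dLG without cortex replicate a (0.106). Without dLG replicate c, the log2FC was 0.45 for the thalamus (adjusted p = 0.0876) and 0.45 for the dLG (0.0863). Within the 2 library series, thalamus and cortex differed by 0.45 and 0.39 in mean log2 CPM. With the series as a covariate, *Slc6a6* did not pass for the thalamus (0.43, adjusted p = 0.117) or the dLG (0.45, adjusted p = 0.102).

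*Abat* encodes GABA transaminase, the first enzyme of GABA breakdown, and lies on chromosome 16 from 8513429 to 8621568. It was at 225, 192, 191, and 249 CPM in the cortex and at 266, 423, 588, 315, and 323 CPM in the dLG, with no overlap. The dLG exceeded the cortex by a log2FC of 0.81 (SE 0.18, adjusted p = 0.00622), or 0.60 (adjusted p = 0.0101) without dLG replicate c, its highest library. The VPM held 266, 329.6, 293, and 320.1 CPM, also above each cortical library, with a log2FC of 0.52 (SE 0.19) that did not pass the threshold (adjusted p = 0.128). It did pass in 4 of 25 settings. These were the fits without dLG replicate a or c (adjusted p = 0.0869 and 0.0275), with the library series as a covariate (0.0354), and of only VPM and cortex (0.00906). The MGv, at 268, 212, 259, and 258 CPM, overlapped with the cortex, with a log2FC of 0.18 and an interval from -0.23 to 0.59. For the whole thalamus the log2FC was 0.55 (SE 0.20, adjusted p = 0.105), and it passed without dLG replicate c, MGv replicate a, b, or c, or VPM replicate a (adjusted p = 0.0659, 0.0968, 0.0572, 0.0823, and 0.0995).

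*Aldh5a1* encodes succinic semialdehyde dehydrogenase, the enzyme that follows *Abat*, and lies on chromosome 13 from 24907579 to 24937661, where *4932702P03Rik* and *9330162012Rik* overlap 17.7% of its exonic length on the opposite strand. As for *Slc6a9*, reads of these overlapping genes cannot be told apart from those of *Aldh5a1*. It was at 46.4, 39.4, 52.3, and 34.0 CPM in the cortex and at 67.7, 103, 62.7, and 70.4 CPM in the MGv. The dLG libraries, at 49.3, 88.9, 86.3, 44.5, and 108 CPM, and the VPM libraries, at 42.8, 64.0, 46.0, and 50.8 CPM, overlapped with the cortex, and the MGv did not. The log2FC against the cortex was 0.78 in the dLG (SE 0.24, adjusted p = 0.0372), 0.78 in the MGv (SE 0.25, adjusted p = 0.0524), and 0.26 in the VPM (interval -0.27 to 0.80, not passing). The dLG call held without dLG replicate c (0.72, adjusted p = 0.0687) and was lost without cortex replicate b (adjusted p = 0.105), and the MGv call without cortex replicate b or d or MGv replicate b (adjusted p = 0.136, 0.124, and 0.159). For the whole thalamus the log2FC was 0.64 (SE 0.23, adjusted p = 0.103). This passed without dLG replicate a or d, MGv replicate c, or VPM replicate a, c, or d (adjusted p from 0.0699 to 0.0999).

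The dLG libraries with the highest *Slc6a11*, replicates b, c, and e, were also those with the highest *Aldh5a1*, and in the MGv replicate b led in both genes. In the VPM the order differed, since *Slc6a11* was highest in replicate c and *Aldh5a1* in replicate b. *Slc6a8*, the creatine carrier of the same family, was at 32.7, 39.2, and 46.6 CPM in dLG replicates b, c, and e, at 20.8 and 13.8 CPM in a and d, and at 48.5 CPM in MGv replicate b, the highest of all. *Gfap* stood at 99.1, 78.9, and 222 CPM in dLG replicates b, c, and e and at 1336 and 971 CPM in a and d. In the MGv, *Gfap* was at 36.5, 610.3, 5731, and 1309 CPM in replicates a to d, with *Slc6a11* at 746, 1730, 909, and 1089 CPM. Replicates b, d, and c thus followed the dLG order, with less *Gfap* where *Slc6a11* was higher. Replicate a, the lowest of the MGv in both genes, did not, and the part of *Gfap* was not tested.

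*Maob* encodes monoamine oxidase B and lies on chromosome X from 16709282 to 16817366. It was at 35.1, 23.8, 32.0, and 34.7 CPM in the cortex, at 9.94, 16.2, 8.29, 10.5, and 6.14 CPM in the dLG, at 13.9, 23.5, 16.5, and 14.3 CPM in the VPM, and at 12.8, 8.10, 15.9, and 12.1 CPM in the MGv. Every thalamic library lay below every cortical library, although VPM replicate b, at 23.5 CPM, came close to cortex replicate b, at 23.8 CPM. The thalamic mean was 12.9 ± 4.59 CPM and the cortical mean 31.4 ± 5.23 CPM (SD, n = 13 and 4), which gave a log2FC of -1.29 (SE 0.24, adjusted p = 0.00161). By nucleus it was -1.65 in the dLG (SE 0.25, adjusted p = 0.000225), -1.40 in the MGv (SE 0.27, adjusted p = 0.00230), and -0.86 in the VPM (SE 0.27, adjusted p = 0.0624). The call for the VPM was lost without cortex replicate a, c, or d (adjusted p = 0.151, 0.128, and 0.156) or VPM replicate a, c, or d (0.188, 0.138, and 0.174). Within the larger and the smaller library series, thalamus and cortex differed by -1.37 and -1.26 in mean log2 CPM. Without dLG replicate c, the log2FC was -1.25 between the regions (adjusted p = 0.00170) and -1.58 between dLG and cortex (0.000633). The 5 ependymal markers summed to 3.55 to 81.4 CPM in the cortex and to at most 7.84 CPM in the thalamus. The 5 mural markers summed to 36.9 to 64.4 CPM in the cortex and to 2.04 to 36.4 CPM in the thalamus, and the part of either cell type in the *Maob* level was not tested.

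*Maoa*, next to *Maob* on chromosome X (16619698 to 16687818), encodes the sister enzyme that prefers serotonin and noradrenaline. Its cortical mean was 114 ± 17.8 CPM and its thalamic mean 122 ± 19.4 CPM (SD, n = 4 and 13), with a log2FC of 0.08 and an interval from -0.22 to 0.37 (adjusted p = 0.812). Per exonic length, *Maob* stood at 0.390, 0.310, 0.525, and 0.447 of *Maoa* in cortex replicates a to d and at 0.0922 to 0.255 of it in the thalamus, so that the groups did not overlap.

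Per exonic length, *Abat* exceeded *Aldh5a1* in every library, with a ratio of 3.54, 3.56, 2.66, and 5.34 in cortex replicates a to d and of 3.93, 3.47, 4.97, 5.15, and 2.18 in dLG replicates a to e. The ratio was 4.52, 3.75, 4.65, and 4.59 in the VPM. In the MGv it was 2.89, 3.01, and 2.67 in replicates a, c, and d and lower still in replicate b, which had the highest *Aldh5a1* of that nucleus. Both of these nuclei overlapped with the cortex, and the MGv libraries lay below those of the VPM, a difference that was not tested.

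**Figure D2:**
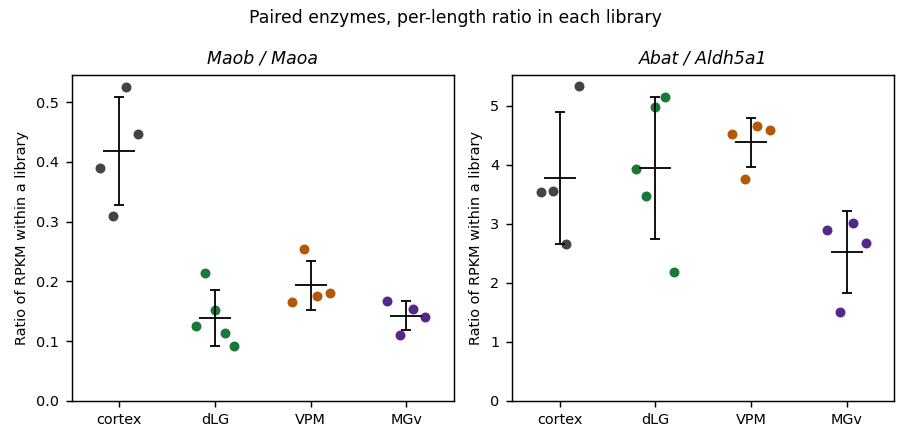
Ratio of *Maob* to *Maoa* (left) and of *Abat* to *Aldh5a1* (right), each as CPM per kilobase of exon (RPKM) within 1 library (points), with mean and SD, on linear axes from 0. The cortical ratios of *Maob* to *Maoa* are 0.310 to 0.525, above every thalamic library, and those of *Abat* to *Aldh5a1*, 2.66 to 5.34, overlap with each nucleus.

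Per exonic length, as CPM per kilobase of exon (RPKM), *Slc6a11* was the highest of the 7 members in every group, at 82.9 ± 8.46 RPKM in the cortex (SD, n = 4), 229 ± 127 in the dLG (SD, n = 5), 157 ± 35.7 in the VPM (SD, n = 4), and 222 ± 85.3 in the MGv (SD, n = 4). *Slc6a9* and *Abat* came next, within each other's spread in the cortex at 29.9 ± 6.32 and 27.7 ± 3.61 RPKM (SD, n = 4). *Maob* had rank 4 of 7 in the cortex, at 11.3 ± 1.88 RPKM (SD, n = 4), above *Aldh5a1* (7.62 ± 1.41) and *Slc6a6* (4.98 ± 0.59). In the dLG, *Maob* stood below both, at 3.66 ± 1.34 RPKM against 13.3 ± 4.84 for *Aldh5a1* and 7.34 ± 1.12 for *Slc6a6* (SD, n = 5), and the same order held in the MGv. In the VPM, *Maob* at 6.12 ± 1.59 RPKM and *Slc6a6* at 5.67 ± 1.28 RPKM were within each other's spread (SD, n = 4). *Slc6a13* was last in every group, with a mean of 0.329 RPKM or less.

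Against the same 4 cortical libraries, the members that passed the threshold were 5 in the dLG (*Slc6a11*, *Slc6a6*, *Abat*, and *Aldh5a1* higher, *Maob* lower), against 19.4% of all genes tested, of which 10.3% were higher and 9.04% lower. In the MGv they were 4 (*Slc6a11*, *Slc6a6*, and *Aldh5a1* higher, *Maob* lower), against 15.4% (7.87% higher, 7.51% lower), and in the VPM 2 (*Slc6a9* higher, *Maob* lower), against 9% (3.56% higher, 5.44% lower). In each nucleus the libraries of 4 of the 6 tested members did not overlap with the cortex, which was so for 12.9% of all genes in the dLG, 19% in the MGv, and 17.4% in the VPM. The median log2FC of the 6 tested members was 0.65 in the dLG, 0.56 in the MGv, 0.39 in the VPM, and 0.51 in the whole thalamus, and that of all genes tested -0.01, 0.00, 0.03, and 0.02. Since the cortical libraries are shared, the 3 nuclei are not independent of each other. The 6 microglial markers were at 10.6 to 19.7 CPM in sum in the cortex, 11.0 to 93.7 in the dLG, up to 55.1 in the MGv, and 6.50 to 10.9 in the VPM. Of the 6, 3 were higher than in the cortex in the dLG, 2 in the MGv, and none in the VPM in edgeR, where 1 (*Aif1*, lower) had an unadjusted p under 0.05, and their part in the members' differences was not tested.

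**Figure D3:**
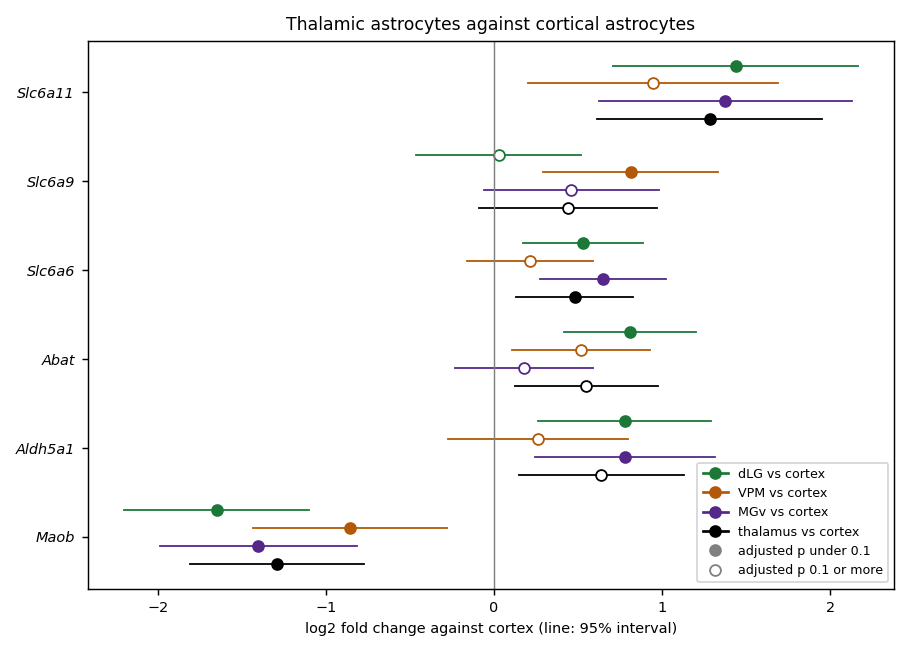
log2 fold change of each tested member against cortex, for each nucleus and for the whole thalamus (colours), with 95% intervals (lines) and filled points where the adjusted p was under 0.1. *Slc6a11* lies above 0 and *Maob* below 0 in all 4 comparisons, and *Slc6a9* passed in the VPM.

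Between nuclei, *Slc6a9* was the 1 member that passed between dLG and VPM in the main fit in edgeR, against 9.64% of the 17319 genes tested. It was also the 1 member whose libraries did not overlap there, against 10.3%. *Maob* was 1.70-fold lower in the dLG than in the VPM, with a log2FC of -0.77 that did not pass (interval -1.39 to -0.15, adjusted p = 0.123), and *Aldh5a1* had one of 0.54 (interval -0.02 to 1.11, adjusted p = 0.218). *Maob* passed in DESeq2 (adjusted p = 0.0631) and, in edgeR, in a fit of all 4 groups (0.0637) or without dLG replicate b (0.0763) or MGv replicate b (0.0916). *Aldh5a1* passed in edgeR without dLG replicate d (0.0672). Between dLG and MGv no member passed in edgeR or DESeq2, against 0.647% of all genes, and 1 had an unadjusted p under 0.05, *Abat*, with a log2FC of 0.63 (interval 0.20 to 1.05, adjusted p = 0.33). Between VPM and MGv no member passed in edgeR, against 11.4% of all genes, and 1 passed in DESeq2. This was *Slc6a6*, the 1 member with an unadjusted p under 0.05 in edgeR, at a log2FC of -0.47 (interval -0.88 to -0.07, adjusted p = 0.132), which passed in edgeR without dLG replicate c (0.0953) or VPM replicate a (0.0873). *Slc6a11* differed by -0.47 between VPM and MGv (interval -1.31 to 0.37) and by 0.06 between dLG and MGv (interval -0.74 to 0.85), so that its order among the nuclei was not resolved. That of *Slc6a9* was VPM, MGv, dLG, with the MGv differing from neither neighbour beyond the threshold.

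Other genes of these pathways were taken from a list of 33, of which 31 had counts and 29 passed the filter. *Slc6a12*, which encodes the betaine and GABA carrier BGT1, and *Slc6a5*, which encodes the neuronal glycine carrier GlyT2, were not analysed here. Between thalamus and cortex 4 of the 29 passed, against 11.4% of all genes tested, and all 4 were lower in the thalamus. *Sat1*, which acetylates polyamines on the way to putrescine, had a log2FC of -0.76 (SE 0.17, adjusted p = 0.00784), from means of 67.8 ± 15.7 and 114 ± 24.5 CPM (SD, n = 13 and 4). *Gldc* and *Gcsh*, the decarboxylase and the carrier protein of the glycine cleavage system, had log2FCs of -0.53 (SE 0.15, adjusted p = 0.0371) and -0.40 (SE 0.13, adjusted p = 0.0672). *Cdo1*, which oxidizes cysteine on the way to taurine, had one of -0.44 (SE 0.12, adjusted p = 0.0242). The libraries of the regions overlapped for each of the 4. The median log2FC over the 29 genes was -0.053, with 14 above 0, and none of the 7 genes around succinic semialdehyde and succinate passed (their median was -0.12). *Slc6a8* had a log2FC of 0.96 that did not pass (SE 0.34, adjusted p = 0.102). The count fell to 2 without cortex replicate a or without cortex replicate c.

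**Figure D4:**
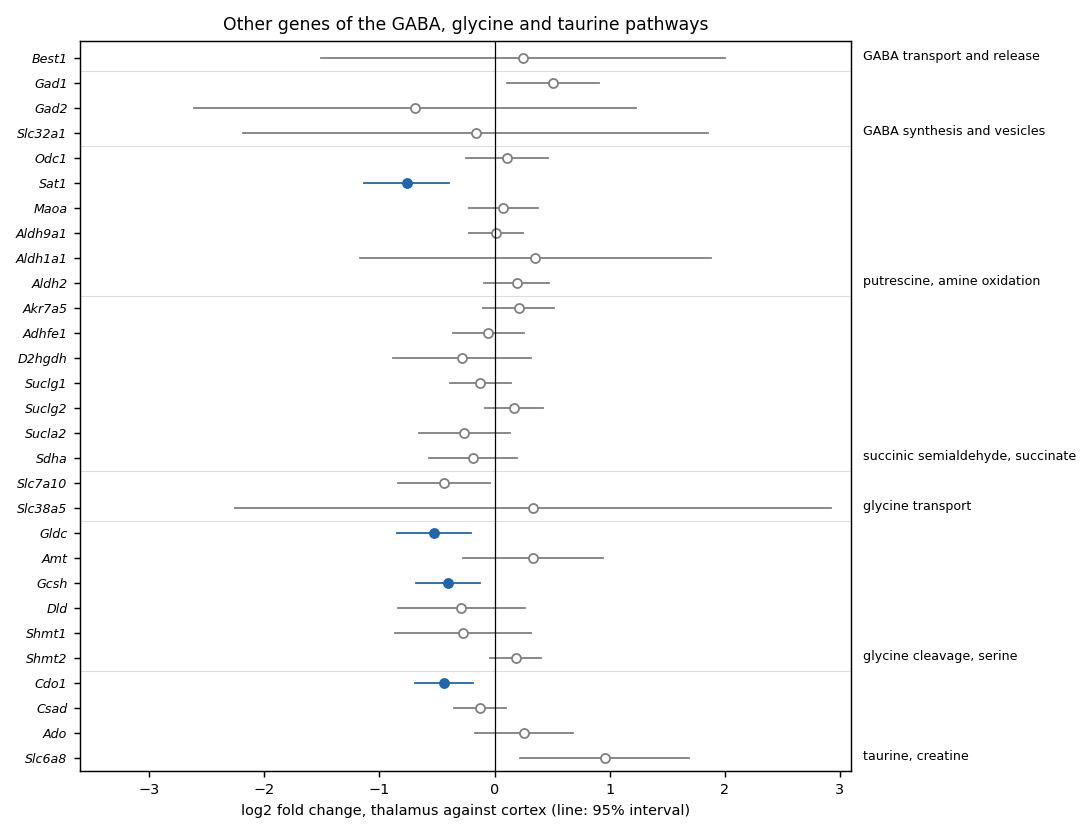
log2 fold change between thalamus and cortex of the 29 other pathway genes that passed the filter (points), with 95% intervals (lines), grouped by pathway as named at the right. The 4 filled blue points are the genes with an adjusted p under 0.1, *Sat1*, *Gldc*, *Gcsh*, and *Cdo1*, all below 0.

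By nucleus, 8 of the 29 passed in the dLG against the cortex (2 higher, 6 lower), 9 in the MGv (2 higher, 7 lower), and 5 in the VPM (2 higher, 3 lower), against 19.4%, 15.4%, and 9% of all genes. *Slc6a8* was higher in the dLG (log2FC 1.09, adjusted p = 0.0194) and in the MGv (1.34, adjusted p = 0.00895), and in the VPM its log2FC was 0.15 (adjusted p = 0.907). *Slc7a10*, the astrocytic carrier Asc-1 that exchanges glycine and D-serine, was lower in the dLG (-0.80, adjusted p = 0.00146) and in the MGv (-0.47, adjusted p = 0.0672). *Gldc* was lower in the VPM (-0.80, adjusted p = 0.00538) and in the dLG (-0.44, adjusted p = 0.0782). *Gad1*, which encodes an enzyme of GABA synthesis, was higher in the dLG (0.67, adjusted p = 0.0428), at 28.7 CPM against 17.7 CPM in the cortex. *Gad2* and the vesicular GABA carrier *Slc32a1* were lower in the VPM than in the cortex (-3.78, adjusted p = 0.00705, and -3.71, adjusted p = 0.0251), from low cortical means of 5.00 and 0.733 CPM. The VPM libraries held 10, 1, 11, and 7 counts of *Gad2* and 1, 3, 0, and 0 of *Slc32a1*, so that counting error limits both values. These 3 genes are also among the 8 markers of inhibitory neurons, which summed to 47.2 to 119 CPM in the cortex, 29.0 to 57.1 in the dLG, 29.9 to 35.7 in the MGv, and 23.5 to 27.4 in the VPM. The markers in the sum did not move alike. *Gad1* was at 21.9 to 24.8 CPM in the VPM and 12.6 to 20.6 in the cortex. *Dlx1* and *Dlx2* reached 23.6 and 33.1 CPM in the cortex and at most 0.110 and 1.11 in the VPM. The part of such neurons in these differences was not tested.

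Between dLG and VPM 8 of the 29 passed, against 9.64% of all genes. *Gad2*, *Slc32a1*, and *Slc6a8* were higher in the dLG (log2FC 4.26, 4.64, and 0.98, adjusted p = 0.0224, 0.0177, and 0.0726), and *Aldh1a1*, *Dld*, *Shmt1*, *Slc7a10*, and *Ado* were lower (-2.32, -0.82, -0.80, -0.71, and -0.52). Between VPM and MGv 6 of the 29 passed, against 11.4% of all genes. Of these, *Shmt1*, *Dld*, *Ado*, and *Suclg1* were higher in the VPM (1.08, 0.87, 0.71, and 0.38) and *Slc6a8* and *Aldh2* lower (-1.23 and -0.44). Between dLG and MGv none passed in edgeR, against 0.647% of all genes, and 2 had an unadjusted p under 0.05. In DESeq2 2 passed, where 185 of 26556 genes were higher and 160 lower in the dLG. Of the 6 genes of glycine cleavage and serine, *Dld* (lipoamide dehydrogenase, shared by several complexes) and *Shmt1* (cytosolic serine hydroxymethyltransferase) passed between dLG and VPM, and the median of the 6 was -0.19. *Gldc* had a log2FC of the other sign, 0.39 (interval 0.05 to 0.73), that did not pass. Of the 8 oligodendrocyte lineage markers, 1 was called between dLG and VPM and 7 between VPM and MGv (5 higher and 2 lower in the VPM), with sums of 2759 to 6224 CPM in the VPM, 3107 to 4287 in the dLG, and 2747 to 3793 in the MGv. Of the 6 microglial markers, 3 were lower in the VPM than in the dLG and 3 lower than in the MGv, and the part of these cells was not tested. The count between dLG and VPM was 2 to 4 without dLG replicate b or e or VPM replicate a, c, or d, and that between VPM and MGv was 10 without dLG replicate c, 1 without VPM replicate a, and 3 without MGv replicate b or VPM replicate c.

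For each member, the genes whose pattern over the 17 libraries was most like it were ranked by the root mean square difference of centred log2 CPM, over 10180 genes. Nearest to *Slc6a11* were *Fam155a*, *Nipal3*, and *Trio*, at differences of 0.32 to 0.34, beside a spread of 0.72 of *Slc6a11* itself. Nearest to *Maob* were *Elovl2*, *Elovl5*, and *Crot*, at 0.28 to 0.32 beside a spread of 0.73. *Elovl2* and *Elovl5* encode fatty acid elongases and *Crot* a peroxisomal carnitine transferase, and their means were 172, 896, and 206 CPM in the cortex and 81.5, 459.7, and 107 CPM in the thalamus. *Aldh5a1* had *Mpdz*, *Zfp428*, and *Rere* (0.17 to 0.18, spread 0.48), *Abat* had *Vangl1*, *Paqr8*, and *Slc30a10* (0.23 to 0.24, spread 0.39), *Slc6a9* had *Gfpt2*, *Lrch3*, and *Sgms1* (0.26 to 0.29, spread 0.49), and *Slc6a6* had *Ubn1*, *Phf20*, and *Rcan3* (0.18 to 0.22, spread 0.35). For *Slc6a13* the nearest were *Kcnk3*, *Tac1*, and *Fbn2*, at 1.45 to 1.51 beside a spread of 2.07, over counts too low to give its pattern.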

How the data were processed

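Per the labels and the study's methods, the authors trimmed adapters, mapped 50-base single reads to mm10 with STAR (2.7.0d), counted them on Ensembl genes with featureCounts (Subread 1.6.4), and deposited raw counts per gene for each of the 17 libraries, without normalization. The members and gene lists were chosen with earlier results of these data known. Of 26556 identifiers, 26548 matched a symbol in the GRCm38 annotation. Groups came from the sample labels, and nothing states that same-lettered replicates share brains. Genes passing filterByExpr (17856 between regions and for each nucleus against cortex, 17319 between nuclei) were fitted with edgeR (4.0.16, TMM, robust quasi-likelihood), with BH adjustment over all of them and a threshold of 0.1. SEs are the size of the log2FC over the square root of *F*. Replicates come from separate pools of brains as far as the labels say, and p-values measure the spread between libraries. The 28 pairs of libraries within groups differed beyond sampling noise (mean chi-square per gene at least 21.2). Totals of 18213687 to 50366363 counts set the precision, and floors and intervals cover counting error only. Within-series differences are means of log2 CPM with a prior count of 0.5. RPKM is CPM over exonic length. All 7 members are reported, pathway genes where they passed or neighbour a member, and the 3 genes most like each member (mean of at least 10 CPM). Alternatives were DESeq2 (1.42.0), its size factors, other filters and thresholds, the letter of the replicate as a blocking factor, the series of library numbers as covariate, other groupings in the fit, and each library left out. On simulated data with 200 genes changed 2-fold between the regions, edgeR recovered 52.5% with 11.0% of calls false, and DESeq2 63.5% with 37.4% false (17831 and 20273 genes). Software was R 4.3.3 and Python 3.11.15. 1 gene of the pathway list is not reported here.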

Additional observations from a re-analysis of the deposited data

Results flagged for a closer look

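Among the 28 groups of 4 or 5 libraries (7 genes in each of 4 groups), 3 held a library set far apart from the rest by Dixon's criterion, and chance alone gives about 1 in 20. *Slc6a13* stood at 2.58 CPM in MGv replicate a against 0.275 to 0.493 CPM in the other MGv libraries, and at 0.0989 CPM, which is 2 counts, in cortex replicate c against 0 in the other cortical libraries. With all others at 0, any count in the remaining cortical library meets the criterion. The cortical flag is therefore uninformative, and the rate of 1 in 20 does not apply to it. *Slc6a6* stood at 63.9 CPM in VPM replicate a against 40.2 to 43.9 CPM in the other VPM libraries. That library also held the highest oligodendrocyte lineage sum of the VPM, 6224 CPM, and the part of those cells was not tested.

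*Slc6a9* differed between nuclei by the test of the difference itself, with a log2FC of -0.76 of dLG against VPM (edgeR, adjusted p = 0.0724), and all 5 dLG libraries lay below all 4 VPM libraries.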

How the results depend on the processing

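Over 978 values of the tested members under the alternatives, 890 kept their direction and side of the threshold, 31 lost and 42 gained the call, and 15 turned sign. The calls of *Slc6a11* and *Maob* in the thalamus, dLG, and MGv, of *Abat* in the dLG, and of *Slc6a6* in the MGv held in all 25 settings run. The signs that turned belonged to differences that passed in no setting: *Slc6a9*, dLG against cortex, -0.056 with the series covariate and -0.066 to 0.23 without 1 library; *Slc6a11*, dLG against MGv, -0.25 with the replicate block, -0.29 with the series covariate and -0.23 to 0.36 without 1 library; and *Aldh5a1*, dLG against MGv, -0.17 to 0.19 without 1 library. Members called between thalamus and cortex (3) were 6 in DESeq2 (with *Slc6a13*), 5 with its size factors, with at least 10 counts in every library, or with the nuclei averaged in a fit of 4 groups (pathway genes 8 there, against 4), and 2 to 5 without 1 library (pathway genes 2 to 6). Over all genes the calls moved too. They were 974 higher and 1059 lower of 17856 in the main fit, and 1704 and 1258 of 26556 in DESeq2. With its size factors they were 1022 and 1030 of 17856, with at least 10 counts 862 and 775 of 12719, and in the fit of 4 groups 1273 and 1514 of 17856. For VPM against cortex (2) members called were 1 at a threshold of 0.05, 4 with the series covariate or only those groups, and 0 to 4 without 1 library. Over all genes, 636 were higher and 971 lower in the main fit, and 472 and 755 at 0.05. With the series covariate these were 803 and 1201, and with only those groups 1174 and 1687 of 15993. For dLG against VPM (1) members called were 0 at 0.05, 2 in DESeq2 or a fit of all groups, and 0 to 2 without 1 library. Pathway genes (8) were 3 at 0.05, 5 with the replicate block, 4 with the series covariate, and 2 to 11 without 1 library. Over all genes, 1122 were higher and 548 lower in the main fit, 511 and 194 at 0.05, and 2038 and 1013 of 26556 in DESeq2. In the fit of all groups these were 1416 and 1029, with the replicate block 705 and 374, and with the series covariate 586 and 228. For VPM against MGv (0) members called were 1 in DESeq2, with at least 10 counts, or with the replicate block, and 0 to 1 without 1 library. Pathway genes (6) were 3 at 0.05 and 1 to 10 without 1 library. Over all genes, 785 were higher and 1194 lower in the main fit, 346 and 612 at 0.05, and 1240 and 1965 of 26556 in DESeq2. With at least 10 counts these were 854 and 1431 of 12867, and with the replicate block 1206 and 1489. For dLG against MGv DESeq2 called 2 pathway genes, beside 185 higher and 160 lower of 26556 genes. The cause of these changes was not tested. Nothing states that same-lettered libraries share brains, and their deviations correlated at -0.15 to 0.19 over 24 pairs, 4 of them above 0.1. With the letter as a replicate block, *Slc6a6* (thalamus) lost its call and *Slc6a11* (VPM against cortex) and *Aldh5a1* (VPM against MGv) gained one. Depth limits *Slc6a13*, at 53 counts or fewer, and pathway genes near 0 such as *Slc32a1* in the VPM.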
